A study of Mus musculus with 48 samples.

Results

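The integrated stress response and the unfolded protein response were followed through 37 genes picked by symbol, out of 34617 gene rows analysed, in paired progenitor and monocytic cultures of 24 mouse clones. They were chosen for their known roles, with earlier results of these data known. All 37 were in the table, all passed the filter of a mean of at least 1 TPM, and each had a TPM above 0 in all 48 libraries. By role they were 8 regulators, 8 enzymes of amino acid and one-carbon synthesis, 5 amino acid transporters or their partners, 8 genes of protein folding in the endoplasmic reticulum (ER), and 8 aminoacyl-tRNA synthetases.

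ER-Hoxb8 cells are mouse bone marrow progenitors kept dividing by Hoxb8, a homeobox factor, joined to the part of the estrogen receptor that binds hormone, and they mature once the fused protein is switched off. Each of 24 clones gave 1 monocyte library, labelled as monocytic cells, and 1 progenitor library, labelled as granulocyte-monocyte progenitors (GMP). All cells of both groups are ER-Hoxb8 cells, so monocytes and progenitors alike carry the transgene, and the labels' growth protocol names RPMI medium, serum and stem cell factor (SCF). The titles call the monocyte libraries Minus and the progenitor libraries Plus. The sources used here do not give what these words stand for, the promoter of the transgene, the strain, age and sex of the donor animals, or the time allowed for maturation. Each clone is 1 line measured once in each state, so p-values measure the spread between clones and not between repeat cultures of a clone. Clones 15 to 24 and 26 (11 clones, here clones 15 to 26) were also set against clones 1 to 13 (13 clones). The labels name no batch, and the 2 sets are defined by clone number alone, so any batch that goes with the numbers cannot be told apart from the set.

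When a cell meets unfolded protein in the ER, scarce amino acids, heme deficiency or double-stranded RNA, kinases phosphorylate the initiation factor eIF2alpha; general translation falls while the mRNA of the transcription factor ATF4 is translated more. ATF4 then drives genes for amino acid uptake, serine, proline and asparagine synthesis, tRNA charging and, with prolonged stress, the factor CHOP (Ddit3). The unfolded protein response has further arms, IRE1 with its splicing target Xbp1 and the factor ATF6, which raise ER chaperones and ER-associated degradation. TPM per gene do not show phosphorylation, ATF4 translation or the splicing of Xbp1, so what follows concerns mRNA levels.

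Values are TPM, transcript abundances corrected for length and relative to the library total, and their depth is unknown. Genes at 1 TPM or more numbered 9436 to 10717 in monocyte libraries and 8240 to 11030 in progenitor libraries. Summed TPM of 7 monocyte markers such as Csf1r and Lyz2 were 2159 to 20680 in monocytes, against 58.0 to 1351 in progenitors. One of the 7, Ccr2, went the other way and was lower in monocytes of 20 of 24 clones (mean 38.3 against 64.2 TPM). The 5 progenitor markers such as Kit and Myb summed to 11.3 to 334 in monocytes, against 222 to 1268 in progenitors. Neutrophil markers such as Ltf and S100a8 were also high in the libraries labelled monocytic, at 992 to 184200 against 2.65 to 10900 TPM in progenitors, and exceeded the monocyte markers in 21 of 24 monocyte libraries. Basophil and mast cell markers summed to 0.326 to 1913 TPM in monocytes and 329 to 2827 TPM in progenitors, eosinophil markers to 0.249 to 1155 and 0.110 to 129 TPM, and markers of cells outside the blood to 0.378 to 8.80 and 0.271 to 7.57 TPM. The medians of Fcer1a, Col3a1, Krt18 and Cdh5 were 0 in both states. The parts of these other cell types in the results were not tested. Several libraries stood apart. Progenitor clone 24 had the fewest genes at 1 TPM or more, and progenitor clone 21 had 23247 genes at 0, the most of any library, while mitochondrial transcripts took 25.1% of TPM in monocyte clone 26.

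Promoters of these genes are known for 2 kinds of element, the C/EBP-ATF element, bound by ATF4 with a C/EBP partner, and the ER stress element, bound by ATF6 or XBP1 with the factor NF-Y. RefSeq promoters (GRCm38.p6, from 250 bases before to 50 after the annotated start) were found for 32 of the 37 genes; Lars, Nars, Slc1a5, Slc7a5 and Wars had no entry in the table used. The core TGATGNAA, searched on both strands, was in 9 of 32 (28.1%) and in 4.51% of promoters of 27025 genes. Members with it were Trib3, Nupr1, Chac1, Asns, Pycr1, Herpud1, Aars, Gars and Iars, and Aars had 2 matches. The ER stress element, CCAAT and CCACG with 9 bases of any kind between them, was in 3 of 32 (9.38%; Hspa5, Calr and Hsp90b1, the last with 2 matches), against 0.137% of all promoters, and ER stress element II, ATTGG and CCACG with 1 base between them, was in Herpud1 alone (3.12%, against 0.0444%). The motifs were chosen for what is known of these genes, and a match is a run of letters and not a binding site.
Shown are matches from each kind of element, 5′ to 3′ on the gene's strand, with the fixed bases of the match in capitals.
Asns (chr6:7693214-7693243, minus strand): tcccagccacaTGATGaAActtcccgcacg
Chac1 (chr2:119351023-119351082, plus strand): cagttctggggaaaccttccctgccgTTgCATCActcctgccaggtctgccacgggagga
Trib3 (chr2:152344028-152344057, minus strand): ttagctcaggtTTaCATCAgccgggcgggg
Herpud1 (chr8:94386291-94386350, plus strand): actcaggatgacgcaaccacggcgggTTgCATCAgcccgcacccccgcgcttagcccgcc
Herpud1 (chr8:94386352-94386411, plus strand): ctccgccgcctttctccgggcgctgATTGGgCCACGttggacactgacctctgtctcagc
Hspa5 (chr2:34772019-34772048, plus strand): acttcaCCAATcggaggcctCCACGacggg
Calr (chr8:84847055-84847114, minus strand): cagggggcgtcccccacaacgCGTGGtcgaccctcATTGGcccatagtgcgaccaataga
Hsp90b1 (chr10:86705513-86705572, minus strand): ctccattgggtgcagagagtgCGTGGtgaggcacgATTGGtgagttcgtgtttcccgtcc
The Hspa5 element covered bases -65 to -47 from the start (base 0) and that of Asns bases -23 to -16. The Trib3 core lay past the annotated start, at bases 14 to 21, and farther off lay those of Chac1, at -193 to -186, and Calr, at -162 to -144.

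**Figure D1:**
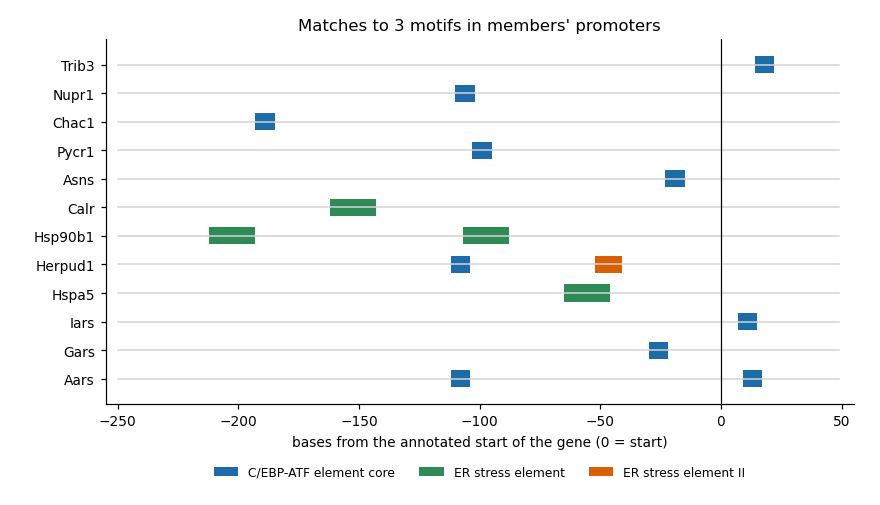
Matches to the 3 motifs in the promoters of the 12 members that hold one, by distance in bases from the annotated start (0 on the x axis); each row is a gene and each box a match on either strand. ER stress elements (green) stand in 3 ER chaperone genes, and the C/EBP-ATF core (blue) stands in 9 genes of 4 roles.

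The first comparison asked how the genes differ between monocytes and progenitors of the same clone. Most were lower in monocytes. In a limma fit of log2(TPM + 1) that took clone as its block, 29 of 37 members fell and 1, Xbp1, rose at an adjusted p under 0.05, and 7 did not pass. Among all 11072 genes tested 36.5% fell and 32.4% rose, 68.8% in all, so a call alone says little in this comparison. The median log2 fold change (monocyte over progenitor) of the 37 members was -0.97, beside -0.06 for all genes tested. All 8 enzymes of amino acid and one-carbon synthesis fell (median -2.19), as did all 8 synthetases (median -0.91), 6 of 8 regulators (median -0.51), 3 of 5 transport genes (median -1.40) and 4 of 8 ER folding genes (median -0.44). The 37 genes together took 0.0730 to 0.416% of TPM in monocytes (median 0.209%) and 0.220 to 0.738% in progenitors (median 0.393%). In RNA of whole cultures, fewer cells of a type and less RNA per cell cannot be told apart.

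**Figure D2:**
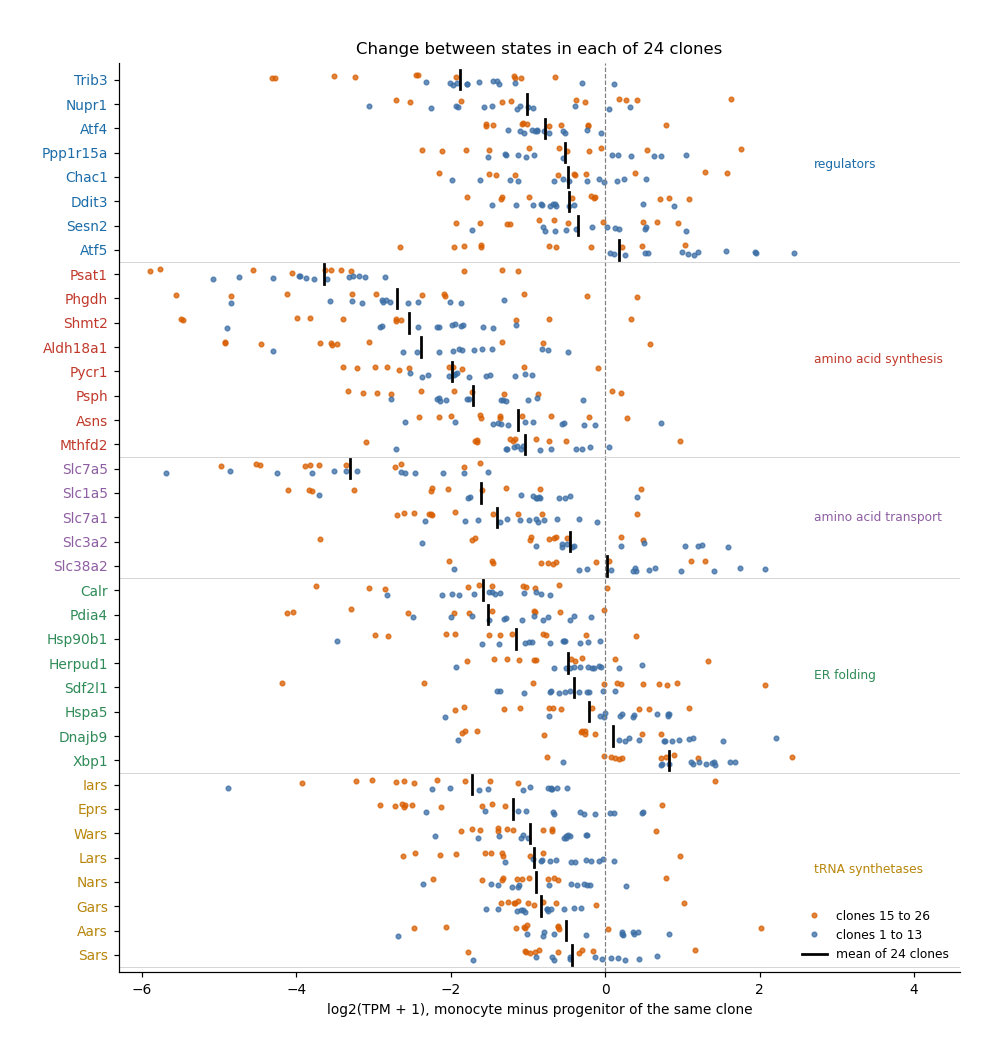
Difference in log2(TPM + 1), monocyte minus progenitor of the same clone, on the x axis for each member (rows, grouped by role); points are single clones, orange for clones 15 to 26 and blue for clones 1 to 13, and the black bar is the mean of 24 clones. Every point lies left of 0 for Psat1, Pycr1, Slc7a5 and Pdia4, and 21 of 24 points lie right of 0 for Xbp1.

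Among the regulators, Atf4, the transcription factor at the centre of the response (mm10 chr15:80255184-80257541, plus strand), was lower in monocytes. Its lowest, median and highest TPM were 49.6, 99.5 and 202 in the 24 monocyte libraries, against 77.4, 174 and 315 in the 24 progenitor libraries. The ranges overlapped, but the monocyte library was the lower in 23 of 24 clones, and the exception was clone 24 (log2 fold change -0.77, SE 0.11, adjusted p = 1.04e-06). Trib3, a pseudokinase and ATF4 target that feeds back on ATF4, changed the most of the regulators, with 0.193, 0.690 and 10.4 TPM in monocytes, against 0.974, 4.69 and 42.5 TPM in progenitors. In 16 of 24 monocyte libraries it was below every progenitor library, and it was lower in 23 of 24 clones (log2 fold change -1.89, SE 0.21, adjusted p = 1.17e-08).

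Ddit3, which encodes CHOP, a factor tied to cell death under lasting ER stress, had 6.75, 14 and 76.8 TPM in monocytes, against 4.70, 17.98 and 105 TPM in progenitors. Every monocyte value lay inside the progenitor range, and the gene was lower in 19 of 24 clones (log2 fold change -0.46, SE 0.16, adjusted p = 0.0117). That call was lost without the clone block (adjusted p = 0.137) and when clones were modelled as random (adjusted p = 0.0973). Ddit3 shares 68 exon bases with the opposite-strand gene Mars, which had a mean of 46.4 TPM over the 48 libraries, and since no strand setting is stated the reads of the pair may not be fully separated. Atf5, a relative of Atf4, did not pass between states over all clones, with 3.77, 9.62 and 38.7 TPM in monocytes, against 2.21, 6.17 and 59.9 TPM in progenitors (log2 fold change 0.18, SE 0.26, adjusted p = 0.545), and its 2 sets of clones moved in opposite directions, as described further on. The other regulators were Nupr1, a small chromatin-bound stress factor (log2 fold change -1.01), Ppp1r15a, whose product GADD34 brings a phosphatase to eIF2alpha (-0.52), and Chac1, which degrades glutathione (-0.49), all called lower. Sesn2, a leucine sensor that restrains mTORC1, missed the threshold (-0.36, adjusted p = 0.0609).

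**Figure D3:**
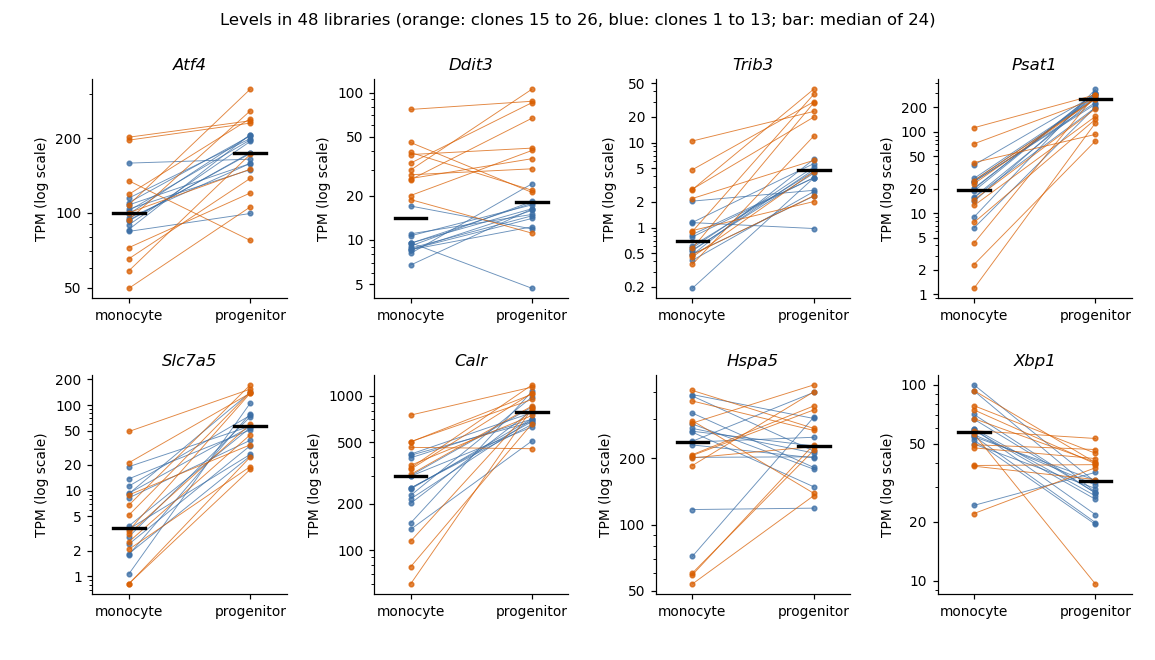
TPM (log axis) of 8 members in monocytes (left) and progenitors (right) of each clone, joined by a line, with orange for clones 15 to 26, blue for clones 1 to 13 and a bar at the median of 24 libraries. All 24 lines slope upward to progenitors for Psat1 and Slc7a5 and 23 for Trib3 and Calr, while 21 slope downward for Xbp1 and 11 for Hspa5.

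Amino acid and one-carbon synthesis had the lowest median of the 5 roles. Psat1, the aminotransferase of the serine pathway (chr19:15904678-15947337, minus strand), had 1.18, 19.2 and 113 TPM in monocytes, against 77.4, 256 and 336 TPM in progenitors. Of 24 monocyte libraries 23 lay below every progenitor library, the exception being clone 22, and Psat1 was lower in all 24 clones (log2 fold change -3.65, SE 0.22, adjusted p = 6.41e-14). Phgdh, which opens the serine pathway, and Psph, which ends it, fell by 2.69 and 1.71 on the log2 scale. Shmt2, the mitochondrial enzyme that takes a one-carbon unit from serine, had 1.72, 27.8 and 180.5 TPM in monocytes, against 47.7, 148 and 343 TPM in progenitors, and was lower in 23 of 24 clones (log2 fold change -2.55, SE 0.27, adjusted p = 4.13e-09). Its partner in the folate cycle, Mthfd2, fell less, by 1.04 (SE 0.17). The proline genes Aldh18a1 and Pycr1 fell by 2.38 and 1.98, and Pycr1 had 0.0658, 0.292 and 6.98 TPM in monocytes, a level at which the scale understates the change, against 1.53, 4.27 and 14.5 TPM in progenitors. Asns, asparagine synthetase and a classic ATF4 target, fell by 1.12 (SE 0.17), with 19.6, 48.2 and 136 TPM in monocytes, against 46.8, 98.1 and 202 TPM in progenitors.

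Transport was uneven. Slc7a5, the LAT1 carrier of large neutral amino acids (chr8:121881150-121907694, minus strand), had 0.812, 3.71 and 49.1 TPM in monocytes, against 17.7, 56.2 and 172 TPM in progenitors. It was lower in all 24 clones, and 21 of 24 monocyte libraries lay below every progenitor library (log2 fold change -3.31, SE 0.22, adjusted p = 3.56e-13). Slc3a2, the heavy chain that carries LAT1 and other light chains to the membrane, did not pass, with 65.5, 463 and 1732 TPM in monocytes, against 231, 564 and 1447 TPM in progenitors (log2 fold change -0.45, adjusted p = 0.0828). Slc1a5, the glutamine carrier ASCT2, had 4.38, 22.4 and 134 TPM in monocytes, against 21.5, 61.6 and 256 TPM in progenitors, and was lower in 22 of 24 clones (log2 fold change -1.61, SE 0.25, adjusted p = 2.46e-06). The cationic carrier Slc7a1 fell by 1.40 and the neutral carrier Slc38a2 did not pass (0.03, adjusted p = 0.921).

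The ER folding genes did not move as one group. Xbp1, the factor spliced by IRE1 (chr11:5520659-5525893, plus strand), was the single member that rose, with 22.1, 57.3 and 100 TPM in monocytes, against 9.64, 32.3 and 53.3 TPM in progenitors. In 16 of 24 monocyte libraries it was above every progenitor library, and it was higher in 21 of 24 clones (log2 fold change 0.83, SE 0.15, adjusted p = 2.14e-05). The call was lost when clones 15 to 26 were fitted alone, at a log2 fold change of 0.54 (adjusted p = 0.1). Of the markers of antibody-making cells, Ighm was higher in monocytes of 23 of 24 clones (log2 fold change 2.25) and Mzb1 lower in 23 of 24 (-1.63), and their part in the level of Xbp1 was not tested. Calr, the calcium-binding lectin chaperone calreticulin, had 60.4, 302 and 747 TPM in monocytes, against 453, 787 and 1172 TPM in progenitors. It was lower in 23 of 24 clones, and 20 monocyte libraries lay below every progenitor library (log2 fold change -1.58, SE 0.17, adjusted p = 4.67e-09). The HSP90 of the ER, Hsp90b1, and the disulfide isomerase Pdia4 fell by 1.15 and 1.52, and Herpud1, a membrane protein of ER-associated degradation, fell by 0.48.

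Hspa5, which encodes BiP, the main ER chaperone and the brake on all 3 ER sensors, did not pass. Its TPM were 53.7, 237 and 405 in monocytes, against 119, 226 and 429 in progenitors, and it was lower in 13 and higher in 11 of 24 clones (log2 fold change -0.20, SE 0.18, adjusted p = 0.325). Sdf2l1, a cofactor of BiP, had 3.21, 37.6 and 84.7 TPM in monocytes, against 19.4, 48.3 and 75.7 TPM in progenitors and did not pass (log2 fold change -0.40, SE 0.23, adjusted p = 0.129). Dnajb9, a BiP co-chaperone that represses IRE1, did not pass either (0.10, adjusted p = 0.688). Of the 3 genes with an ER stress element in the promoter, Calr and Hsp90b1 were called lower and Hspa5 did not pass, and the difference between them was not tested. Reads of Hsp90b1 may mix with those of 1810014B01Rik on the opposite strand, which shares 415 exon bases and had a mean of 98.4 TPM.

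All 8 tRNA synthetases, which charge tRNAs with amino acids, fell. Iars, for isoleucine, changed the most, with 1.49, 15.7 and 42.1 TPM in monocytes, against 11.2, 45.4 and 151 TPM in progenitors, and was lower in 23 of 24 clones (log2 fold change -1.73, SE 0.25, adjusted p = 8.8e-07). Eprs, for glutamate and proline (chr1:185363044-185428360, plus strand), had 1.95, 9.84 and 27.8 TPM in monocytes, against 6.56, 18.5 and 75.7 TPM in progenitors, and was lower in 19 of 24 clones (log2 fold change -1.20, SE 0.23, adjusted p = 3.84e-05). Both ranges overlapped those of progenitors. The others, Wars, Lars, Nars, Gars, Aars and Sars, fell by 0.43 to 0.97, with the smallest drops in Aars (-0.50, lower in 15 of 24 clones) and Sars (-0.43, lower in 18 of 24 clones). The call for Aars was lost in 3 of the 24 fits with a clone left out and in 5 other alternatives, and that for Sars in 1. Within clones 1 to 13, in the fit described further on, 5 of the 8 were called lower, and Aars, Eprs and Sars did not pass.

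No member separated all 24 monocyte libraries from all 24 progenitor libraries, as 0.560% of genes tested did downward and 1.14% upward. Within clones 1 to 13, 7 members did, all lower in monocytes (Psat1, Phgdh, Shmt2, Aldh18a1, Pycr1, Slc7a5 and Calr), against 11.9% of genes tested. Within clones 15 to 26 no member did, against 0.732%. Some single libraries lay toward the other state. Monocyte clone 22 had the highest level of all monocytes in 16 of the 37 members, among them Psat1 (113 TPM), Slc7a5 (49.1 TPM) and Trib3 (10.4 TPM). Its progenitor markers summed to 334 TPM and its neutrophil markers to 992 TPM, the most and the least of the 24 monocyte libraries. Monocyte clone 17, highest in 7 members, had the next highest sum of progenitor markers, 245 TPM. Monocyte clone 1 was also highest in 7 members, with progenitor markers at 28.6 TPM and neutrophil markers at 51900 TPM. Monocyte clone 23 had the next lowest neutrophil sum, 1907 TPM, and was highest in no member. At the other end, monocyte clone 21 was lowest in 12 members and had the highest sum of neutrophil markers, 184200 TPM, and monocyte clone 8 was lowest in 8 members with 83760 TPM. The part of these markers in the members' levels was not tested; without clones 17 and 22 the count between states was again 29 lower and 1 higher. Progenitor clone 24 was the lowest progenitor in 16 members, with a median deviation of -0.92 log2 units from the progenitor median for the members, beside -1.04 for all genes tested.

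Of 58 other genes of the same pathways, 56 passed the filter, and 35 fell and 12 rose in monocytes (median log2 fold change -0.59). These were 62.5% and 21.4% of the 56, beside 36.5% and 32.4% of all genes tested. All 12 other synthetases fell, led by Kars, for lysine (log2 fold change -1.58, SE 0.18, adjusted p = 1.11e-08), and Yars, for tyrosine (log2 fold change -1.53, SE 0.18, adjusted p = 1.42e-08). Among 16 other ATF4-linked genes 9 fell (56.25%) and 4 rose (25%). Bcat1, the cytosolic branched-chain aminotransferase, had a median of 0.125 TPM and at most 5.30 TPM in monocytes, against 0.531, 6.98 and 41.4 TPM in progenitors, and was lower in all 24 clones (log2 fold change -2.81, SE 0.23, adjusted p = 1.96e-11). Atf3, a stress factor induced downstream of ATF4 and by inflammatory signals, went the other way, with 1.23, 32.1 and 140.0 TPM in monocytes, against at most 7.40 TPM in progenitors, and was higher in all 24 clones (log2 fold change 3.97, SE 0.28, adjusted p = 8.68e-13). Cebpb, a C/EBP factor of myeloid maturation (2.48), Slc7a11, the cystine carrier (1.52), and Jdp2, a partner of Jun (1.29), also rose.

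Among 17 other ER genes 10 fell (58.8%) and 3 rose (17.65%), beside 36.5% and 32.4% of all genes tested. Ero1l, the ER oxidase, and Manf, a secreted ER stress protein, fell by 1.32 (SE 0.24, adjusted p = 2.17e-05) and 1.23 (SE 0.16, adjusted p = 1.09e-07). The 3 that rose were Edem1, Derl2 and Sel1l, which serve ER-associated degradation, at 1.07, 0.50 and 0.43. Of 11 sensors and partners 5 rose (45.45%) and 4 fell (36.4%), and the share that fell was near that of all genes tested. Eif2ak2, the kinase PKR activated by double-stranded RNA, rose the most (log2 fold change 0.89, SE 0.16, adjusted p = 1.93e-05), and Eif2s1, the eIF2alpha subunit itself, fell the most (log2 fold change -1.03, SE 0.17, adjusted p = 3.86e-06). Among the other kinases of eIF2alpha, Eif2ak3 (PERK, 0.66) and Eif2ak1 (HRI, 0.43) rose and Eif2ak4 (GCN2, -0.54) fell. Cebpb, Slc7a11, Jdp2, the 3 degradation genes and these 3 kinases are named outside the rule for named genes, after their values were seen.

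The second comparison asked whether the change between states was the same in both sets of clones. Changes within each set came from 1 fit of both sets with a shared estimate of the spread. Within clones 15 to 26, 29 members were called, against 56.9% of genes tested. Of these 28 fell, against 34.9%, and the other was Xbp1, which rose. No member was called higher there without clone 15, 16, 17, 22 or 24, without clones 17 and 22 together, or when that set was fitted alone. The same held with no filter on low values, and after mitochondrial, Gm-named and pseudogene entries were left out and TPM rescaled. Within clones 1 to 13, 26 were called, against 63.9% of genes tested; 23 fell, against 28.8%, and Atf5, Xbp1 and Dnajb9 rose. The change itself differed between the sets for 4 of 37 members, Atf5, Eprs, Dnajb9 and Lars. In all 4 it was lower in clones 15 to 26, against 9.79% of genes tested with a lower and 1.66% with a higher change there, 11.5% in all, so the members' share was near that of all genes. Of the 56 other pathway genes 10 (17.9%) had a lower change there and none a higher. These were 7 of 16 other ATF4-linked genes (43.75%), 2 of 17 ER genes, 1 of 11 sensors and partners and 0 of 12 synthetases. Of all genes called, 14.5% had the higher change in clones 15 to 26, against 60.8% after quantile normalization, when 5 members were called, all lower. After that normalization 7.10% of genes tested had a lower and 11% a higher change, beside 13.5% and 0% of members.

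Atf5 fell in clones 15 to 26 and rose in clones 1 to 13. In clones 15 to 26 it had 3.77, 9.65 and 38.7 TPM in monocytes, against 5.49, 30.1 and 59.9 TPM in progenitors (log2 fold change -0.86, SE 0.28, adjusted p = 0.0104). Clones 1 to 13 had 5.61, 9.58 and 31.6 TPM in monocytes, against 2.21, 4.84 and 7.497 TPM in progenitors (log2 fold change 1.06, SE 0.26, adjusted p = 0.000755). It was lower in monocytes of 8 of 11 clones in the one set and higher in monocytes of all 13 clones in the other, and the changes differed by -1.93 (SE 0.38, adjusted p = 0.00231). Part of the Atf5 transcript, 82 exon bases, overlaps the opposite-strand gene Nup62, which had a mean of 39.7 TPM.

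Eprs fell by 1.98 in clones 15 to 26, against 0.54 in clones 1 to 13, where it did not pass alone (adjusted p = 0.0627), and the difference was -1.44 (SE 0.37, adjusted p = 0.0142). Dnajb9 had log2 fold changes of -0.56 (adjusted p = 0.0748) in clones 15 to 26 and 0.66 (adjusted p = 0.0213) in clones 1 to 13, a difference of -1.22 (SE 0.36, adjusted p = 0.0311). Lars changed by -1.43 in clones 15 to 26 and -0.50 in clones 1 to 13 (difference -0.93, SE 0.30, adjusted p = 0.0439). The calls for Atf5 and Eprs held in every alternative and with each clone left out, and those for Dnajb9 and Lars did not. The count of 4 ran from 2 to 9 with single clones left out: it was 2 without clone 1, 10, 18, 19 or 23, 8 without clone 8 and 9 without clone 24, and it was 2 without clones 17 and 22. The share of all genes tested with a lower change moved with it. Without clone 8 it was 19.65% (21.6% of members), without clone 24 25.2% (24.3% of members), and without clones 17 and 22 5.36% (5.41% of members). Atf4 changed by -0.79 and -0.76 in the 2 sets, with a difference of -0.02 (SE 0.23), and Psat1 by -3.50 and -3.77 (difference 0.27, SE 0.45).

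**Figure D4:**
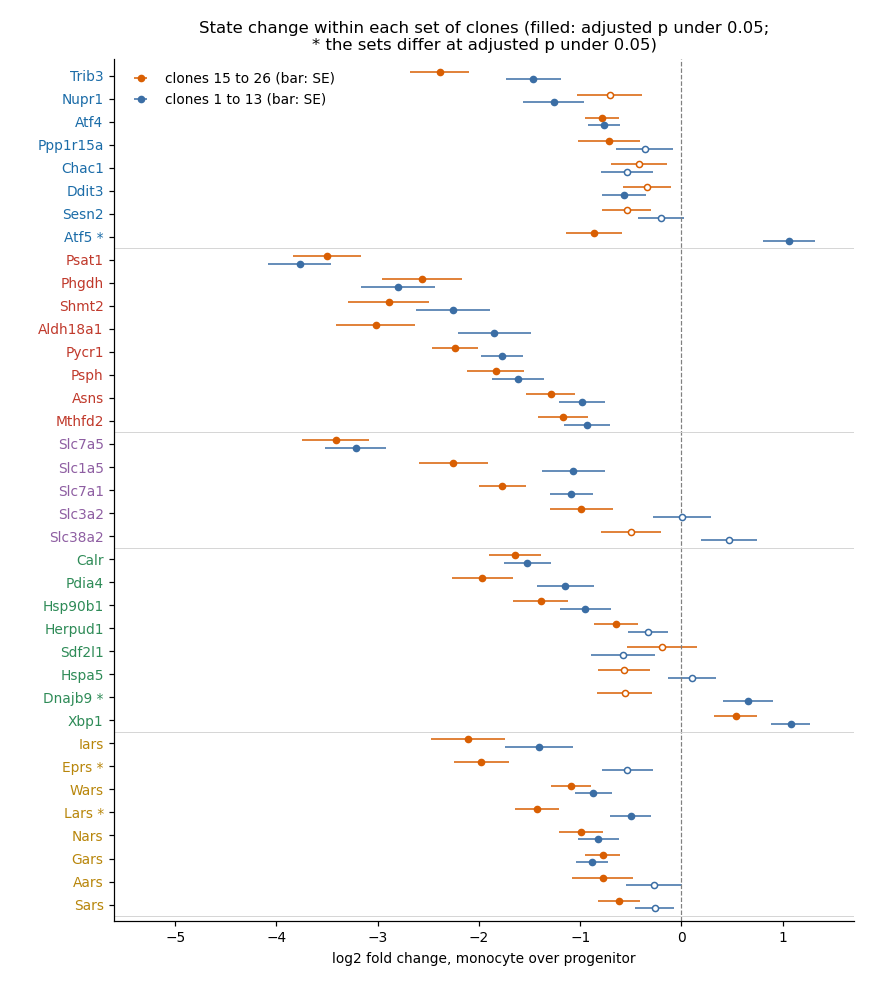
Log2 fold change, monocyte over progenitor, on the x axis for each member within clones 15 to 26 (orange, upper) and clones 1 to 13 (blue, lower), with SE bars; filled points passed and stars mark the 4 members whose change differed between the sets. Atf5 lies at -0.86 in clones 15 to 26 and 1.06 in clones 1 to 13, while Atf4 lies at -0.79 and -0.76.

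The third comparison set clones 15 to 26 against clones 1 to 13 within each state. In progenitors 14 of 37 members were higher and 2 lower in clones 15 to 26, against 28.5% of genes tested higher and 10.9% lower; the median log2 difference was 0.47 for members and 0.22 for all genes tested. By role 4 of 8 regulators, 5 of 8 synthetases, 3 of 5 transport genes and 2 of 8 synthesis enzymes were higher. No ER folding gene was higher, and 1 of 8, Sdf2l1, was lower, a call lost in 20 of 24 fits with a clone left out, with 19.4, 35.8 and 75.7 TPM in clones 15 to 26, against 35.1, 52.2 and 60.2 TPM in clones 1 to 13 (log2 fold change -0.42, SE 0.17, adjusted p = 0.0454). Among the 16 other ATF4-linked genes 9 were higher and none lower, and among 17 other ER genes 3 were higher and 4 lower. Of the 12 other synthetases 3 (25%) were higher, and of the 11 sensors and partners 5 (45.45%), with none lower in either list. The 56 other pathway genes together had 20 higher (35.7%) and 4 lower (7.14%). Mitochondrial transcripts also differed, averaging 11.97% of the total in the progenitor libraries of clones 15 to 26, against 5.73% for clones 1 to 13, and their part in the differences was not tested beyond the rescaling given next. Gm-named entries, which that rescaling also left out, averaged 31.3% in the one set and 32.6% in the other. Cell type markers differed too between these progenitors. Of 7 monocyte markers Cd14 (log2 difference 1.39), Csf1r (1.20) and Itgam (1.04) were higher in clones 15 to 26, of 5 progenitor markers Kit was higher (0.92) and Cd34 lower (-0.67), and of 5 basophil and mast cell markers Mcpt8 (-1.68) and Ms4a2 (-2.55) were lower. Summed monocyte markers were 58.0 to 1351 TPM in clones 15 to 26 and 62.6 to 604 TPM in clones 1 to 13, and no neutrophil marker passed. Their part in the differences was not tested.

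These counts moved with the scaling and with single libraries. After mitochondrial, Gm-named and pseudogene entries were left out and TPM rescaled, 24 members were higher and 1 lower, beside 40.9% and 8.22% of all genes tested, and 83.3% of all calls were higher. After quantile normalization 22 (59.5%) were higher and 2 lower, beside 23.3% and 25.5% of all genes tested, so that 47.8% of all calls were higher after quantile normalization and 72.4% in the values as deposited. Without clone 24, 24 members were higher and 1 lower, beside 44.4% of all genes higher. Without clones 19, 21, 24 and 26, 29 were higher and 1 lower, beside 57.7% of all genes higher. Without clones 17 and 22, 9 were higher and 1 lower, beside 21.3% of all genes higher.

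Atf5 differed the most in progenitors, with 5.49, 30.1 and 59.9 TPM in clones 15 to 26, against 2.21, 4.84 and 7.497 TPM in clones 1 to 13. All but 1 of the 11 progenitor libraries of clones 15 to 26 lay above every one of the 13 others (log2 fold change 2.14, SE 0.29, adjusted p = 6.49e-06). Slc1a5 had 43.0, 148 and 256 TPM in clones 15 to 26, against 21.5, 42.2 and 71.0 TPM in clones 1 to 13, and again 10 of 11 lay above the other set (log2 fold change 1.65, SE 0.24, adjusted p = 1.7e-05). Trib3 had 2.02, 19.9 and 42.5 TPM in clones 15 to 26, against 0.974, 3.86 and 6.35 TPM in clones 1 to 13 (log2 fold change 1.58, SE 0.40, adjusted p = 0.0031). Of the 11 libraries 7 lay above the other set, and clone 26 had the lowest of the 11. Eprs had 7.82, 41.4 and 75.7 TPM in clones 15 to 26, against 6.56, 13.4 and 27.1 TPM in clones 1 to 13 (log2 fold change 1.35, SE 0.29, adjusted p = 0.000747), and Shmt2 had 47.7, 215 and 343 TPM, against 62.4, 116 and 184 TPM (log2 fold change 0.78, SE 0.25, adjusted p = 0.0148). In both, 8 of 11 libraries lay above the other set, and for Shmt2 1 lay below it. Slc38a2 (1.35), Slc7a1 (0.98), Lars (0.97), Sesn2 (0.90), Aars (0.82), Sars (0.79), Nars (0.65) and Pycr1 (0.61) were also higher. With a clone left out, Pycr1's call was lost in 17 of 24 fits and that of Aars in 6, and without clones 17 and 22 those of Shmt2, Sesn2, Aars, Nars and Pycr1 were lost. Psat1 was lower, with 77.4, 193 and 286 TPM in clones 15 to 26, against 199, 266 and 336 TPM in clones 1 to 13 (log2 fold change -0.56, SE 0.19, adjusted p = 0.0212), and the call was lost without clones 19, 21, 24 and 26 (adjusted p = 0.23). The message of Atf4 itself did not pass, with 77.4, 172 and 315 TPM in clones 15 to 26, against 99.4, 175 and 207 TPM in clones 1 to 13 (log2 fold change -0.01, SE 0.19, adjusted p = 0.961), and neither did that of Hspa5 (0.24, adjusted p = 0.339).

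Ddit3 was higher in clones 15 to 26 in both states. Monocytes of clones 15 to 26 had 18.8, 29.8 and 76.8 TPM, against 6.75, 9.09 and 16.99 TPM in monocytes of clones 1 to 13. No library of one set reached the other, a separation upward that 0.199% of genes tested showed (log2 fold change 1.66, SE 0.18, adjusted p = 3.56e-06). The number of genes listed at 0 also separated these monocyte libraries, at 17937 to 20027 in clones 15 to 26, against 16114 to 17507 in clones 1 to 13, and its part in the difference was not tested. Progenitors of clones 15 to 26 had 11.1, 40.5 and 105 TPM, against 4.70, 15.9 and 24.1 TPM in progenitors of clones 1 to 13, and there 8 of 11 lay above the other set (log2 fold change 1.43, SE 0.30, adjusted p = 0.000559). Both calls held in every alternative and with each clone left out. Trib3 did not pass between the sets in monocytes, where it had 0.368, 0.921 and 10.4 TPM in clones 15 to 26, against 0.193, 0.575 and 2.04 TPM in clones 1 to 13 (log2 fold change 0.66, SE 0.28, adjusted p = 0.156), and neither did Atf5 and Atf4 (adjusted p = 0.763 and 0.938). In all, 2 of 37 members were higher in monocytes of clones 15 to 26, Ddit3 and Gars, the glycine synthetase (log2 fold change 0.55, SE 0.13, adjusted p = 0.00944), against 3.92% of genes tested. The 1 that was lower was Dnajb9 (log2 fold change -1.36, SE 0.31, adjusted p = 0.00732), against 3.19%. Mitochondrial transcripts averaged 11.6% of the total in monocyte libraries of clones 15 to 26, against 5.11% for clones 1 to 13. After rescaling without mitochondrial, Gm-named and pseudogene entries together, Ddit3, Gars and Dnajb9 were again called among 5 members. No fit left out mitochondrial transcripts alone. The call for Dnajb9 was lost without clones 19, 21, 24 and 26 (adjusted p = 0.0698). Of all genes called between sets in monocytes 55.2% were higher, against 83.0% after that rescaling and 66.0% after quantile normalization, when 6 members were higher and 1 lower. Summed neutrophil markers had a median of 15250 TPM in monocytes of clones 15 to 26 and 83760 TPM in those of clones 1 to 13, and their part in these differences was not tested.

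**Figure D5:**
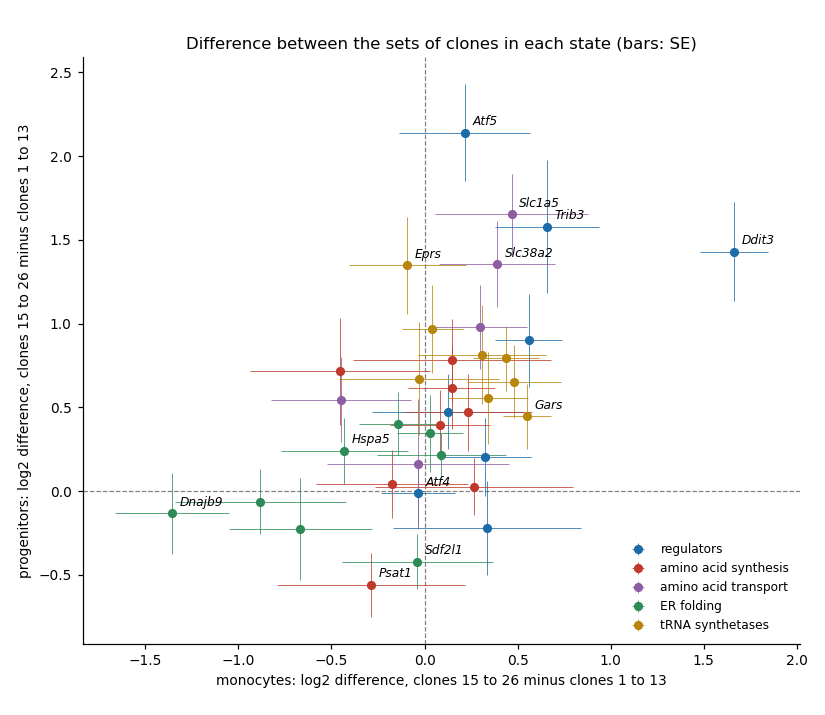
Log2 difference, clones 15 to 26 minus clones 1 to 13, in monocytes (x axis) and in progenitors (y axis) for each member, coloured by role, with SE bars. Ddit3 stands to the upper right, at 1.66 in monocytes and 1.43 in progenitors, while Atf5, Trib3, Slc1a5 and Eprs are high on the progenitor axis.

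In 3 pairs, each of 1 role, levels varied together between the clones of a set, while Ddit3 and Hspa5 passed in no group. Correlations of log2(TPM + 1) were taken for 5 pairs within each state and set, 20 relations in all, with two-sided permutation tests of 100000 pairings and adjustment over the 20. The points of a relation share the composition of each library, so genes that are low in a whole library move together. The chaperones Hspa5 and Hsp90b1 had Pearson's r of 0.927 in monocytes and 0.883 in progenitors of clones 15 to 26 (rho 0.891 and 0.909), and 0.916 and 0.870 in clones 1 to 13 (rho 0.940 and 0.670), with adjusted p of 0.00055 or less for r and 0.0183 or less for rho. Without the 2 clones farthest from the median of Hspa5 the 4 values ran from 0.736 to 0.932. Asns and Psat1 had r of 0.840 in monocytes and 0.858 in progenitors of clones 15 to 26, and 0.714 and 0.783 in clones 1 to 13 (rho 0.819 to 0.857, adjusted p of 0.00905 or less for r and 0.00428 or less for rho; r 0.627 to 0.896 without the 2 farthest). Aars and Sars had r of 0.753 and 0.941 in clones 15 to 26 and 0.915 and 0.847 in clones 1 to 13 (rho 0.773 to 0.864, adjusted p of 0.00797 or less for r and 0.0104 or less for rho; r 0.741 to 0.958 without the 2 farthest).

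Ddit3 and Trib3 varied together in progenitors, with r of 0.934 in clones 15 to 26 (rho 0.973, adjusted p of r 0.000133, 0.899 without the 2 farthest) and 0.912 in clones 1 to 13 (rho 0.852, adjusted p 0.000233, 0.748 without the 2 farthest). In monocytes of clones 15 to 26 they did not pass, with r of -0.199 (rho -0.391, adjusted p 0.614 by permutation, -0.256 without the 2 farthest). In monocytes of clones 1 to 13 r was 0.784 (adjusted p 0.00785 by permutation) and rho 0.725 (adjusted p 0.0104 by permutation). Without the 2 clones farthest from the median of Ddit3, r there dropped to 0.408, a value given with no test. Whether r differs between the states was not tested. Ddit3 and Hspa5 passed in none of the 4 groups, with r of -0.140 in monocytes and 0.267 in progenitors of clones 15 to 26, and 0.449 and -0.0848 in clones 1 to 13 (rho -0.182, 0.364, 0.412 and -0.132; adjusted p of 0.160 or more by permutation). Without the 2 clones farthest from the median of Ddit3, r was -0.719 in monocytes and 0.450 in progenitors of clones 15 to 26, and 0.0272 and -0.133 in clones 1 to 13, values given with no test.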

How the data were processed

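Total RNA of 24 ER-Hoxb8 clones was sequenced in paired monocyte and progenitor libraries. The authors deposited 1 table of TPM, estimated with Salmon on mm10, per the submitters' processing notes. Filters, the strand setting and the release of the annotation are not stated there or in the labels. TPM keep no depth, so counting error is unknown, and a high share of a few transcripts lowers all others. Of 34643 rows, 26 named as calendar dates were left out.

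Genes with a mean of at least 1 TPM (11072) were fitted with limma 3.58.1 (R 4.3.3, trended variances) on log2(TPM + 1), which understates changes of low genes, with Benjamini-Hochberg adjustment over all of them and a threshold of 0.05. The fit was tested on simulated data. State fits had clone as a block and set fits within a state had none. The labels and the design text pair libraries by clone: deviations of the 2 libraries from their state and set means correlated above 0.1 in 10 of 11 clones of clones 15 to 26 and in 2 of 13 of clones 1 to 13. Correlations used two-sided permutation tests (scipy 1.17.1). Promoters came from RefSeq (GRCm38.p6) and gene positions from GENCODE M21. Alternatives were other pseudocounts, filters and scalings, fits with no block or random clones, and clones left out.

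The 37 members, the other pathway lists and the markers were chosen with earlier results of these data known. The summed level of 1 marker list is not reported here. Genes named in full were Atf4, Ddit3, Xbp1 and Hspa5, in each role the members with the largest called change between states, in each direction, and the largest called difference between sets in progenitors, and in each other list the 2 genes with the largest called change.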

Additional observations from a re-analysis of the deposited data

Results flagged for a closer look

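The change between states differed between the sets of clones for 4 members, by the interaction term of the limma fit, given here as the change in clones 15 to 26 minus that in clones 1 to 13. The values were -1.926 for Atf5, -1.44 for Eprs, -1.224 for Dnajb9 and -0.9252 for Lars on the log2 scale (adjusted p = 0.00231, 0.0142, 0.0311 and 0.0439). Atf5 was lower in monocytes in 8 of 11 clones of clones 15 to 26 and in none of the 13 clones of clones 1 to 13. Eprs was lower in 10 of 11 and 9 of 13 clones, Dnajb9 in 9 of 11 and 1 of 13, and Lars in 10 of 11 and 12 of 13. Among all genes tested 11.5% differed in this way.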

How the results depend on the processing

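Between states 30 members were called, and 25 to 34 under the other settings, with 29 to 32 when each clone was left out. Without the replicate block that count was 28 and with the block as a random effect 29. Calls for 22 of the 30 held in every setting, and those for Aars, Chac1, Ddit3, Herpud1, Nupr1, Ppp1r15a, Sars and Xbp1 were lost in at least 1. Atf5 reversed, to -0.8612 in clones 15 to 26 fitted alone, where the sign differs because clones 1 to 13, in which it rose, are absent. The count of 4 members whose change differed between sets was 4 without the replicate block, 2 with no filter on low values, 8 without clones 19, 21, 24 and 26, 8 without clone 8, 2 without clones 17 and 22 (added after seeing the data), and 2 to 9 with each clone left out. The share of all genes tested with a lower change was 7.91% in the first of these settings (10.8% of members). It was 4.01% with no filter (5.41% of members) and 23.5% without clones 19, 21, 24 and 26 (21.6% of members). Between sets in progenitors the count of 16 was 25 without mitochondrial, Gm-named and pseudogene entries, 24 after quantile normalization, 30 without clones 19, 21, 24 and 26, 10 without clones 17 and 22, and 13 to 25 with each clone left out, and 9 of the 16 calls held in every setting, while those for Aars, Nars, Psat1, Pycr1, Sdf2l1, Sesn2 and Shmt2 were lost in at least 1. The share of all genes tested that was higher, 28.5% as deposited, was 40.9%, 23.3%, 57.7% and 21.3% in the first 4 of these settings. Between sets in monocytes the count of 3 was 5 without mitochondrial, Gm-named and pseudogene entries, 7 after quantile normalization and 3 to 4 with each clone left out, and the call for Dnajb9 was lost without clones 19, 21, 24 and 26. Between those sets in monocytes 9.26% of all genes tested were higher without those entries and 12% after quantile normalization, against 3.92% as deposited. The causes were not tested. Leaving out those entries moved the median change of all genes between states to -0.25, against -0.06 as deposited, and the median set difference in progenitors to 0.35, against 0.22, and quantile normalization moved that set difference to -0.02. Gm-named entries took a median of 23.3% of TPM in monocytes and 32.1% in progenitors, and mitochondrial transcripts 5.51% and 8.12%. The part of each kind of entry in these shifts was not tested. TPM give no depth, so no limit of detection could be set.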
